A study of Homo sapiens with 17 samples.

Results

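The genes described here are those whose deposited coordinates span 400 kb to 3 Mb and whose mean count in control cells was at least 10, with INPP4B, RPTOR and MSRA left out. The rule took 339 of the 16884 genes in the deposited table. RNA was measured in BEAS-2B, a human airway lining cell line made to divide without limit, wild type by its label and used in every group. Cells were kept for 24 h in BEGM, a bronchial epithelial growth medium, with acetaldehyde at 0 mM (control, 6 libraries), 10 mM (6 libraries) or 16 mM (5 libraries). Acetaldehyde is a reactive aldehyde formed from ethanol and present in tobacco smoke. Separate cultures are not stated for replicate libraries, so p-values measure only the spread between libraries, which may be technical.

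RNA polymerase copies a gene from its start to its end, introns included, before the transcript can be finished, so a gene's span sets how far a polymerase must travel for each messenger RNA. Most of a long gene is intron, which is removed, so its messenger RNA is far shorter than its span. Very long genes are common among those for cell adhesion, receptors, polarity and signalling scaffolds, and several of them underlie the common fragile sites, chromosome regions that break when DNA replication is slowed.

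The label of a long gene held for only part of the members. In GENCODE v29, an independent gene annotation matched by NCBI gene ID, 213 of the 339 members span at least 400 kb, 51 span 100 to 400 kb and 75 span under 100 kb. The deposited start and end of HRAS, for example, lie 474 kb apart on a scaffold, while GENCODE gives the gene 5.0 kb. Of the 126 members under 400 kb in GENCODE, 57 are placed on such a scaffold in the deposited table, as is 1 of the 213 others, and across the whole deposit 1131 genes have a deposited span over 10 times that of GENCODE. The 213 are called long members below. They span 400.5 to 2242 kb with a median of 538 kb, and their longest coding transcript has a median of 18 exons and 5992 exonic bases. The exonic share of the span, taken gene by gene, has a median of 0.988%.

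The control mean count chose the members, so a fall against control is described here as a count beside the same count over all genes, and the list as a whole was given no test. Just inside the minimum of 10 were LDLRAD4 (mean control count 10.0), TMEM232 (10.17) and KAZN (10.33), and just outside were STXBP5L (9.34), SLIT3 (9.5) and KSR2 (9.67). The shortest deposited spans inside were those of BMPR1B (400.5 kb), KIAA1328 (403.4 kb) and DOCK10 (404.0 kb), and the longest just outside were those of BCLAF1 (397.2 kb), GM2A (399.4 kb) and ASCC3 (399.9 kb). Of the 339 members, 334 had enough counts to be tested, as had 209 of the 213 long members. AFF2, TMEM232, CHODL, LDLRAD4 and DGKI did not.

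Total estimated counts lay between 15952673 and 17245281 in the 16 libraries used, and between 12040 and 12525 genes had at least 10 counts. Library 1 of the 10 mM group stood apart, with 11716 such genes and a normalisation factor of 0.5587 against 0.9672 or more in the others, and was left out of the fit. Within each group the remaining libraries were divided into 2 sets of like libraries, called close sets, numbers 1 to 3 and 4 to 6 in control, 2 to 4 and 5 to 6 at 10 mM, and 1 to 3 and 4 to 5 at 16 mM. Control library 1 was less close, with squared differences in counts 11.2 and 11.58 times those of counting noise against libraries 3 and 2, and 20.47 or more against the second set. The labels name no batch. Of the epithelial markers, KRT7, KRT8, KRT18 and KRT17 were at 48.4 FPKM or more in control, while KRT5, KRT19, EPCAM and CDH1 were at 0.06 FPKM or less. FPKM is a level scaled for transcript length and for library size. The summed FPKM of 5 immune markers was 3.14 to 4.9 in control, 9.14 to 11.0 with 10 mM and 11.4 to 14.5 with 16 mM, nearly all of it CD68, with PTPRC at 0.005 or less. That of 5 neuronal markers was 17.0 to 62.0, 53.2 to 76.3 and 73.6 to 87.5, nearly all of it TUBB3, with ELAVL4 at 0. The sum of 7 fibroblast markers was 583 to 957, 600 to 756 and 498 to 634. Mean levels were 773, 650 and 554 FPKM for VIM and 12.7, 6.62 and 3.5 for PDGFRB. COL1A1 averaged 3.62, 6.74 and 3.48 FPKM. DCN and LUM averaged under 1 FPKM in each group, and COL1A2 and COL3A1 were at 0.005 or less. For 8 epithelial markers the sum was 874 to 1680, 1120 to 1360 and 1200 to 1310. Among them KRT17 averaged 48.4, 91.3 and 180 FPKM and KRT8 306, 355 and 360. KRT7 averaged 559, 429 and 435 FPKM, and KRT18 377, 339 and 285. The part of these differences in the results was not tested. In bulk RNA, fewer cells of a type and less RNA per cell cannot be told apart.

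The promoters of 4 genes are printed because they carry the extremes among the long members. PARD3B and AFF3 fell most at 16 mM, and RUNX1 and NAV3 rose most. Each line gives the 100 bases before the start in RefSeq (GRCh38.p14), 5′ to 3′ on the gene's strand, with CG dinucleotides in capitals. The windows are chr2:204545375-204545474 on the plus strand for PARD3B, chr2:100142591-100142690 on the minus strand for AFF3, chr21:34888700-34888799 on the minus strand for RUNX1 and chr12:77830794-77830893 on the plus strand for NAV3.
PARD3B: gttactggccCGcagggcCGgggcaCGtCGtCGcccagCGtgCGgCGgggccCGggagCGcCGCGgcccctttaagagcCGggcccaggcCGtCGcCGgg
AFF3: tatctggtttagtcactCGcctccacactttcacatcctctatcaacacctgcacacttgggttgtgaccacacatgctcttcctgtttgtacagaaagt
RUNX1: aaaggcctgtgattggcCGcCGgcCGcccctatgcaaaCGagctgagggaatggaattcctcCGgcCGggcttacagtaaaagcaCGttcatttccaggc
NAV3: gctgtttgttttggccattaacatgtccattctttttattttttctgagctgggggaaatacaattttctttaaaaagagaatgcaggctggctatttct

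The PARD3B window holds 16 CG dinucleotides, that of RUNX1 7, that of AFF3 1 and that of NAV3 0, so both directions of change include a CG-rich and a CG-poor start. In PARD3B and AFF3 the RefSeq start lies 0.3 and 0.1 kb from the 5′ end of the gene in GENCODE. The deposited coordinates of AFF3 reach further in the 5′ direction. In RUNX1 and NAV3 it lies 1116 and 506.3 kb inside the gene. The same distance is given for the other long members after the levels.

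At 16 mM the long members were low as a group. Of 209 tested, 181 were lower than control and 8 higher at an adjusted p under 0.05, with a median log2 change of -1.56, a level 0.338 times that of control. Over all 12545 tested genes the median was 0.01, and 65.9% passed the test, 32.2% lower and 33.7% higher. A fall of at least 2-fold was called for 134 long members (64.1%), against 7.57% of all genes. In 172 of them every 16 mM library lay below every control library, against 23.8% of all genes. Changes ran from -6.27 to 1.93, with quartiles of -2.45 and -0.68.

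**Figure D1:**
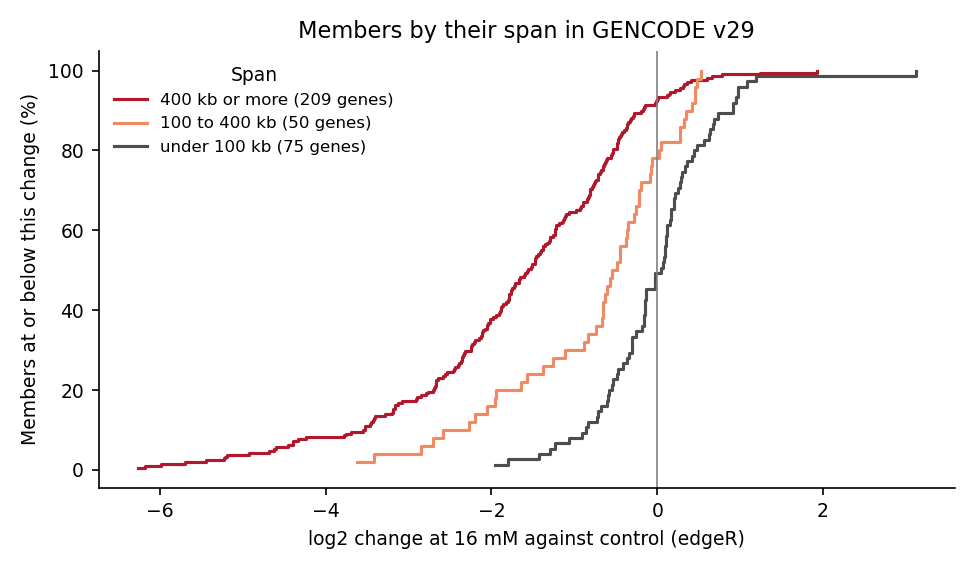
Cumulative share of the tested members (y axis, %) at or below a given log2 change at 16 mM against control (x axis), for members of 400 kb or more (209 genes), 100 to 400 kb (50) and under 100 kb (75) in GENCODE v29. The curve of the longest class lies left of the others, with its median at -1.56, while that of the shortest is centred near 0.04.

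Members of 100 to 400 kb were lower too, but by less. The 50 tested had a median of -0.51, with 33 lower (66%) and 5 higher. The 75 members under 100 kb, which met the rule through their deposited coordinates alone, had a median of 0.04, with 22 lower (29.3%) and 24 higher (32%), close to the shares of all genes. Over the full 339, the counts were 236 lower and 37 higher of 334 with a median of -0.84, so a count over every member mixes these classes.

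At 10 mM, 168 of 209 long members were lower and 1 higher, with a median of -0.83, or 0.563 times control. Among all genes 45.2% passed, 22.8% lower and 22.4% higher, with a median of 0.00. Falls of at least 2-fold were called for 90 long members (43.1%, against 2.79% of all genes), and 151 had no overlap with control (15.8% of all genes were lower without overlap). Members of 100 to 400 kb had a median of -0.39 and those under 100 kb 0.09. Summing the close libraries before the fit left 69 long members lower and 0 higher at 10 mM, beside 191 lower and 55 higher of all genes.

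The fit behind the comparison of the doses holds all 3 groups, so control counts enter it through the filter on low counts and the shared spread. From 10 to 16 mM, 127 of 209 long members were lower and 5 higher, with a median log2 change of -0.58, while 44.1% of all genes passed, 20.9% lower and 23.2% higher. At least 2-fold lower were 52 (24.9%, against 2.5% of all genes), and 105 had every 16 mM library below every 10 mM library (15.2% of all genes). With the control libraries left out of the filter and the fit, 186 long members could be tested, of which 118 were lower and 4 higher with a median of -0.51, beside 2677 lower and 2835 higher of 12304 genes. With 10 mM library 1 in the fit, 86 were lower and 1 higher. With the close libraries summed, none of the long members and none of all genes passed, while the median was -0.62; each group then had 2 sums.

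The close sets gave similar values when fitted alone. In the first, 181 long members were lower and 9 higher at 16 mM with a median of -1.50, and in the second 185 and 8 with a median of -1.65. At 10 mM the medians were -0.81 and -0.98. From library to library the median of the long members relative to the control mean ran from -0.03 to 0.05 in control, -0.99 to -0.72 with 10 mM and -1.68 to -1.38 with 16 mM. The dose groups did not overlap. Long members took 0.872% ± 0.0315 of the counts (SD, n = 6) without acetaldehyde, 0.548% ± 0.0483 with 10 mM and 0.404% ± 0.0359 with 16 mM (n = 5 each). That of the members under 100 kb was 0.571% ± 0.0083, 0.598% ± 0.0225 and 0.579% ± 0.0243.

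**Figure D2:**
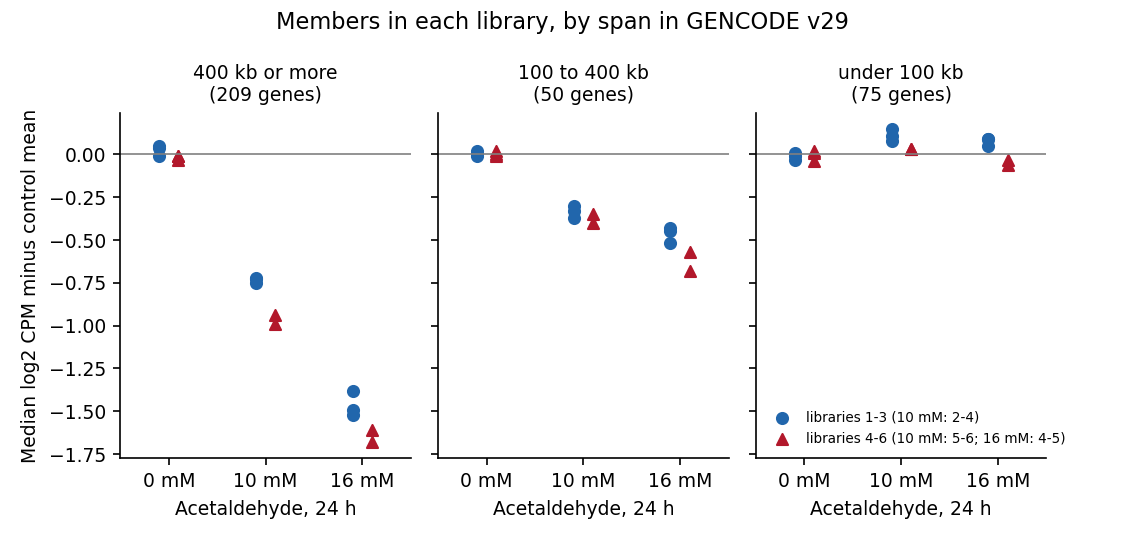
Median over genes of log2 CPM (counts scaled by library size) minus the control mean (y axis) in each of 16 libraries (points), by acetaldehyde dose (x axis, mM) and by the members' span in GENCODE v29; circles and triangles mark the 2 close sets. Long members lie between -0.99 and -0.72 at 10 mM and between -1.68 and -1.38 at 16 mM, while members under 100 kb stay between -0.06 and 0.15 in the exposed libraries.

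Across all tested genes, grouped by their span in GENCODE, low medians appeared in the classes above 200 kb. At 16 mM the median log2 change was -0.02 for 2311 genes under 10 kb, 0.10 for 3579 of 10 to 30 kb and 0.07 for 4147 of 30 to 100 kb. It was -0.08 for 1519 genes of 100 to 200 kb, -0.48 for 679 of 200 to 400 kb and -1.48 for 239 of 400 kb to 3 Mb. When the normalisation used only genes under 100 kb, the median of all genes was -0.07, that of the 30 to 100 kb class turned to -0.01, and 4703 genes were lower and 3533 higher. At 10 mM the 200 to 400 kb class had a median of -0.27 and the longest class -0.79. Within the long members the order by span was weak, at -1.43 for 132 tested genes of 400 to 600 kb, -1.87 for 58 of 600 kb to 1 Mb and -1.44 for 19 of 1 to 3 Mb. The rank correlation of span and change over these 209 genes was -0.08 at 16 mM and -0.13 at 10 mM; genes share libraries, so this is a description across genes.

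**Figure D3:**
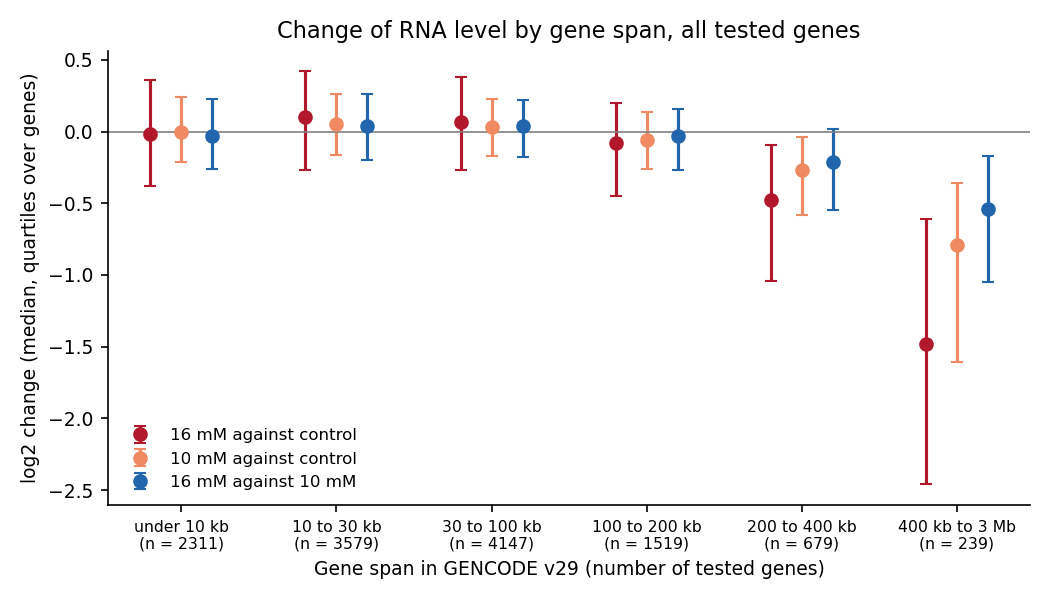
Median log2 change (points) with the lower and upper quartiles over genes (bars, y axis) for all tested genes in 6 classes of GENCODE v29 span (x axis), in 3 comparisons. The medians lie within 0.10 of 0 up to 200 kb and reach -1.48, -0.79 and -0.54 in the longest class.

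By mean control count, which the rule also used, the long members are described without a test. At 16 mM the median log2 change was -1.67 for the 37 tested long members with a mean control count of 10 to 50, -2.02 for 53 with 50 to 200, -1.48 for 75 with 200 to 1000 and -1.13 for 44 with 1000 or more. Of those 44, 41 were lower. In the authors' deposited table, 183 of the 213 long members were lower and 7 higher at 16 mM at a q-value under 0.05, with a median log2 change of -1.60. Fewer were called there in the other comparisons. At 10 mM 135 were lower and 1 higher (median -0.92), beside 1272 and 1282 of 16570 genes. Between the doses 79 were lower and 1 higher (median -0.63), beside 861 and 707 of 16474 genes.

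The long members were also grouped by function, and the counts of each group below are of tested long members, to be read beside the 86.6% of all long members that were lower at 16 mM and the 80.4% at 10 mM. PARD3B, a polarity protein of cell junctions, fell most. Its gene covers chr2:204544513-205620162 (GRCh38.p13, deposited coordinates), and its longest coding transcript joins 23 exons into 8174 bases. Its level was 5.26 to 9.25 FPKM in control with a median of 6.38. At 10 mM the 5 libraries had 0.51, 0.46, 0.37, 0.18 and 0.15 FPKM, and at 16 mM 0.08, 0.08, 0.12, 0.07 and 0.07. The 3 groups did not overlap. The log2 change was -6.27 ± 0.29 (SE) at 16 mM (adjusted p = 2.9e-11), -4.28 ± 0.24 at 10 mM and -1.99 ± 0.35 between the doses (adjusted p = 0.000332). The step between the doses did not pass with the close libraries summed (adjusted p = 0.143) or with limma on log2(FPKM + 1) (adjusted p = 0.0794).

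AFF3, a nuclear protein of the AF4 family tied to transcription elongation, lies at chr2:99545419-100190303. It had 1.75 to 3.23 FPKM in control, 0.42, 0.38, 0.32, 0.11 and 0.05 at 10 mM, and 0.05, 0.05, 0.02, 0.02 and 0.02 at 16 mM. Control stood above both doses, and the doses touched at 0.05. The change was -6.18 ± 0.47 at 16 mM (adjusted p = 8.67e-09) and -3.21 ± 0.35 at 10 mM (adjusted p = 2.04e-06).

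Adhesion and recognition proteins on the cell surface included several low genes. SDK1, an adhesion molecule of the immunoglobulin superfamily at chr7:3301186-4269000, had 5.91 to 7.02 FPKM in control, 0.47, 0.43, 0.36, 0.31 and 0.4 at 10 mM and 0.18, 0.14, 0.13, 0.22 and 0.23 at 16 mM. It separated all 3 groups, with log2 changes of -5.19 ± 0.17 at 16 mM (adjusted p = 9.32e-13) and -4.06 ± 0.15 at 10 mM. NEGR1, another immunoglobulin-type adhesion protein, had 4.84 to 8.03 FPKM in control, 0.13 to 0.59 with 10 mM and 0.06 to 0.84 with 16 mM. It was low at both doses, with changes of -4.33 ± 0.29 at 16 mM and -4.43 ± 0.29 at 10 mM, and the doses overlapped (adjusted p = 0.836 between them). Of 15 long members in the adhesion list, 12 were lower at 16 mM, 0 higher and 3 did not pass, with a median of -1.47. ADGRL2, a latrophilin receptor and the best expressed of them, changed little in size, from 29.4 ± 3.04 (SD, n = 6) to 23.8 ± 0.693 and 20.2 ± 1.5 FPKM (n = 5 each), with a log2 change of -0.53 ± 0.08 at 16 mM (adjusted p = 2.34e-05; 0.171 with all 17 libraries).

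The 3 members of the receptor-type tyrosine phosphatase family, named for removing phosphate from tyrosines, were called lower at both doses. PTPRG had 11.0 to 12.6 FPKM in control, 3.92, 3.82, 4.15, 2.96 and 2.9 at 10 mM and 1.89, 1.79, 1.76, 1.5 and 1.84 at 16 mM, with no overlap between groups and a change of -2.70 ± 0.08 at 16 mM (adjusted p = 8.8e-13). PTPRM went from 11.7 ± 2.83 to 3.82 ± 1.18 and 2.11 ± 0.345 FPKM, a change of -2.56 ± 0.19 at 16 mM (adjusted p = 6.22e-09). PTPRN2 was low throughout, at 0.12 ± 0.0583 FPKM in control, with a change of -2.32 ± 0.58; with the close libraries summed its adjusted p was 0.0512 at 16 mM and 0.223 at 10 mM, and with all 17 libraries 0.0547 at 10 mM.

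Receptors and ligands were lower in a share near that of all long members. Of 10 in the list of receptor kinases, growth factor receptors and ligands, 8 were lower at 16 mM and 2 did not pass, and the same number, 8, were lower at 10 mM. The medians were -1.90 and -1.24. PLXDC2, a transmembrane plexin domain protein, went from 3.71 ± 0.283 to 1.17 ± 0.322 and 0.5 ± 0.11 FPKM. EDA, the ectodysplasin ligand, had 1.52 ± 0.285, 0.63 ± 0.277 and 0.148 ± 0.0763 FPKM, with a change of -3.40 ± 0.30 at 16 mM (adjusted p = 5.35e-08). ROR1, a receptor tyrosine kinase-like protein that binds a Wnt ligand, changed by -1.98 ± 0.28 at 16 mM and -0.94 ± 0.26 at 10 mM. Its call at 10 mM was lost with the close libraries summed (adjusted p = 0.278).

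Secreted and matrix proteins were low with a median of -2.74 at 16 mM and -1.85 at 10 mM. Of 8, 7 were lower at 16 mM and all 8 at 10 mM. EDIL3, a secreted integrin-binding protein at chr5:83940554-84384880, had the highest mean control count of the long members. It had 91.4 to 126.2 FPKM in control, 33.7, 31.6, 31.2, 22.3 and 23.6 at 10 mM and 13.0, 11.6, 11.9, 13.3 and 12.6 at 16 mM. The groups stood apart, with a change of -3.08 ± 0.13 at 16 mM (8.47-fold lower, adjusted p = 1.36e-11) and -1.92 ± 0.12 at 10 mM. THSD4, a thrombospondin-repeat matrix protein, fell by 2.39 ± 0.17 on the log2 scale at 16 mM, and SEMA3A, a secreted guidance cue, by 1.76 ± 0.13.

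**Figure D4:**
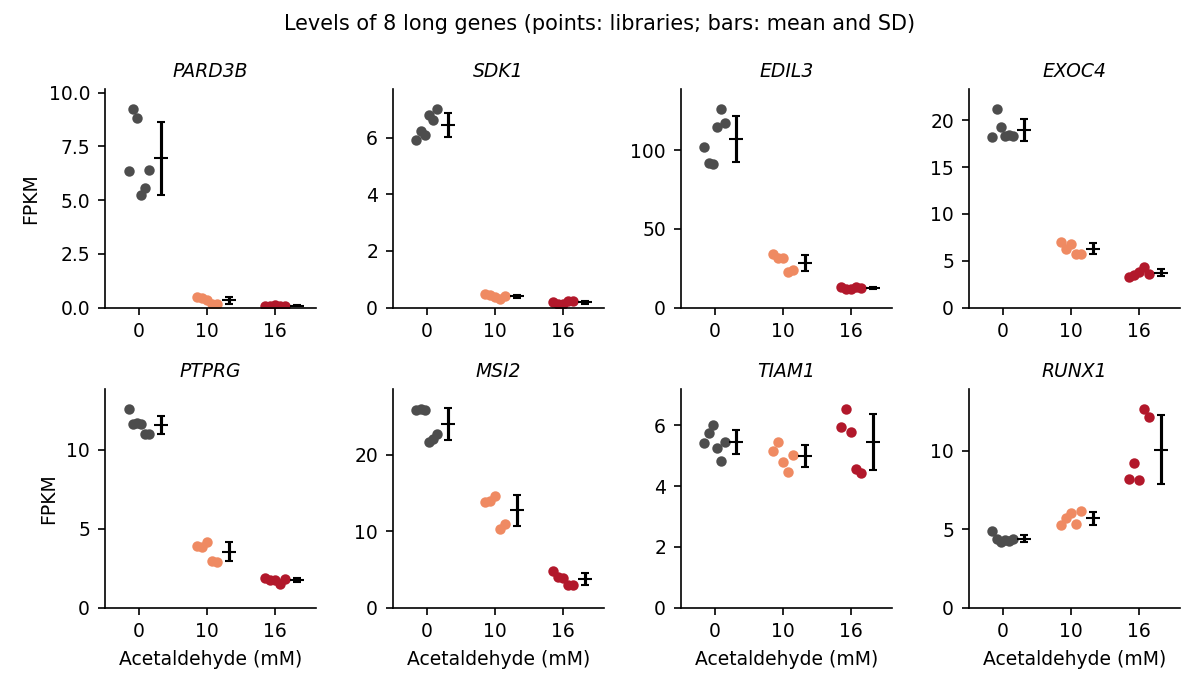
FPKM (y axis, from 0) of 8 long members in each library (points) by acetaldehyde dose (x axis, mM), with mean and SD beside them (n = 6, 5 and 5). The other 6 genes lie lower at 10 mM and lower again at 16 mM, TIAM1 keeps 4.42 to 6.53 FPKM throughout, and RUNX1 reaches 8.15 to 12.7 at 16 mM.

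A list of common fragile site genes, which need not be complete, held 11 members. Of these, 10 were lower at each dose (WWOX at 10 mM only in part of the fits), with medians of -2.67 at 16 mM and -1.73 at 10 mM. EXOC4, a subunit of the exocyst that tethers vesicles to the plasma membrane, lies at chr7:133253075-134067137. It had 18.2 to 21.2 FPKM in control, 7.01, 6.24, 6.8, 5.77 and 5.67 at 10 mM and 3.3, 3.52, 3.84, 4.28 and 3.61 at 16 mM. Its groups did not overlap, and the change was -2.67 ± 0.10 at 16 mM (adjusted p = 2.77e-12). DPYD, the enzyme that starts pyrimidine breakdown, had 9.57 to 15.1 FPKM in control, 3.27, 3.83, 3.94, 1.53 and 1.59 at 10 mM and 1.5, 1.06, 1.7, 1.01 and 0.8 at 16 mM, with a change of -3.70 ± 0.28 (adjusted p = 8.05e-09).

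The other members of the fragile site list differed in size and in dose. IMMP2L, a protease subunit of the mitochondrial inner membrane, changed by -2.37 ± 0.18 at 16 mM and -2.12 ± 0.18 at 10 mM, and the doses did not differ by the test (adjusted p = 0.345). DMD, which encodes dystrophin and is the longest member by GENCODE at 2242 kb, went only from 10.7 ± 0.929 to 6.65 ± 0.389 and 6.63 ± 0.934 FPKM, changes of -0.77 ± 0.06 at 10 mM and -0.76 ± 0.06 at 16 mM. WWOX, an oxidoreductase with WW domains, overlapped between groups at 5.6 ± 1.45, 4.43 ± 1.07 and 3.8 ± 1.32 FPKM, with a change of -0.89 ± 0.21 at 16 mM (adjusted p = 0.00141; 0.0748 with the close libraries summed). Its call at 10 mM (-0.56 ± 0.21, adjusted p = 0.0355) was lost in several fits, at adjusted p = 0.401 with the close libraries summed, 0.0644 with a replicate block and 0.0926 without 10 mM library 2. DLG2 did not pass at either dose. CTNNA3, an alpha-catenin, was listed at 0 counts in all 5 of the 10 mM libraries, and no other long member was at 0 in a whole group.

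Membrane traffic, ubiquitin ligase and autophagy genes were the largest list. All 28 tested long members of it were lower at 16 mM, with a median of -1.89, 27 at 10 mM, with a median of -0.92, and 22 between the doses. SBF2, a regulator of endosomal traffic, had 11.2 to 13.3 FPKM in control, 8.47, 7.45, 7.97, 5.02 and 5.13 at 10 mM and 2.67, 2.39, 2.55, 1.26 and 1.42 at 16 mM. The change between the doses (-1.72 ± 0.18, adjusted p = 5.17e-06) was larger in size than that from control to 10 mM (-0.81 ± 0.16). With the close libraries summed neither change of SBF2 passed (adjusted p = 0.135 and 0.133). DYM, a Golgi protein, went from 22.7 ± 3.26 to 13.8 ± 1.56 and 9.63 ± 1.3 FPKM. FAF1, a ubiquitin-binding partner of the p97 ATPase, went from 61.4 ± 12.2 to 39.2 ± 0.771 and 36.9 ± 4.27 FPKM, a change of -0.63 ± 0.08 at 16 mM (adjusted p = 4.99e-06).

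**Figure D5:**
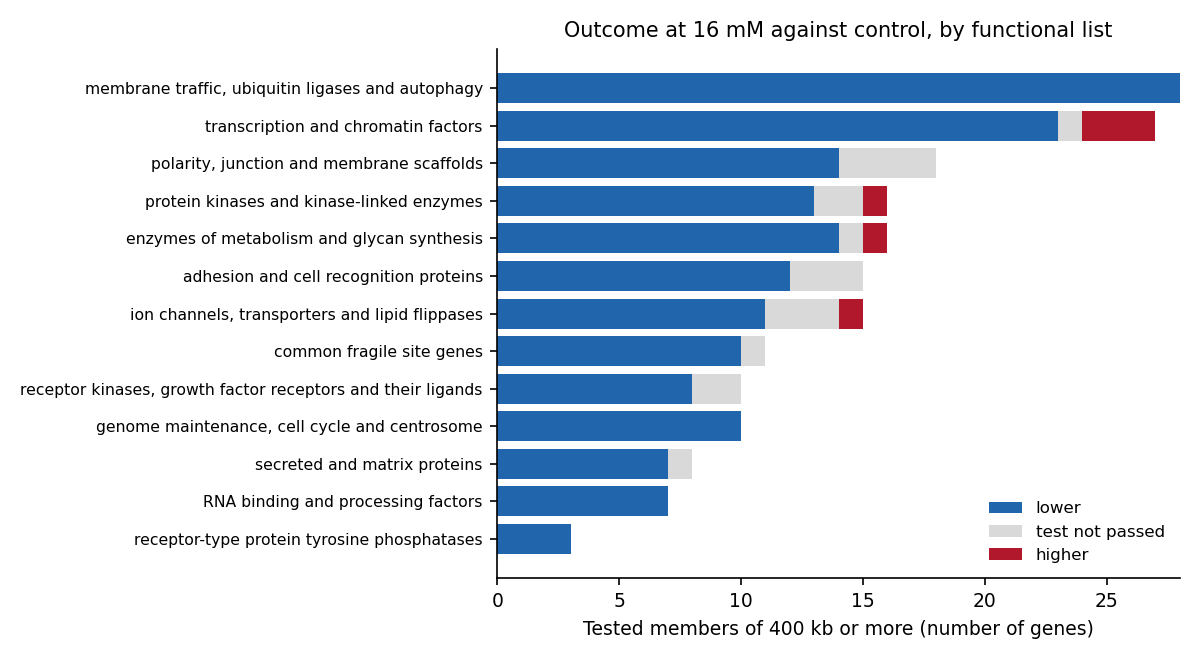
Number of tested long members (x axis) in 13 functional lists (y axis) that were lower, higher or did not pass the test at 16 mM against control (edgeR, adjusted p under 0.05). Lower calls make up most of every list shown, and in the largest list, membrane traffic, all 28 were lower.

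All 7 RNA binding and processing factors among the long members were lower in each of the 3 comparisons, with medians of -1.67, -0.66 and -0.89. MSI2, an RNA-binding regulator of translation, had 21.6 to 25.9 FPKM in control, 13.8, 14.0, 14.6, 10.2 and 11.0 at 10 mM and 4.79, 3.98, 3.88, 3.01 and 2.95 at 16 mM. It separated the groups, and its step between the doses (-1.78 ± 0.12, adjusted p = 2.38e-07) was the larger one. RBMS3, an RNA-binding protein of the c-Myc single-strand binding family, changed by -3.55 ± 0.18 at 16 mM. SND1, a nuclease and RNA-binding co-activator, was high throughout, at 81.1 ± 9.41, 62.0 ± 2.12 and 47.7 ± 2.38 FPKM, and changed by -0.74 ± 0.09. FTO, an RNA demethylase, changed by -1.06 ± 0.08.

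Transcription and chromatin factors held both directions. Of 27 tested long members, 23 were lower at 16 mM, 3 higher and 1 did not pass, and at 10 mM 20 were lower and 1 higher. FOXN3, a forkhead repressor, had 21.4 to 25.8 FPKM in control, 9.92 to 15.3 with 10 mM and 6.34 to 10.4 with 16 mM, with the doses overlapping and a change of -1.47 ± 0.12 at 16 mM (adjusted p = 1.24e-08). CUX1, a homeodomain protein, changed by -0.64 ± 0.05 in counts, while its FPKM went from 21.4 ± 1.9 to 10.8 ± 0.255, so the 2 scales differed in size. CAMTA1 went from 74.5 ± 6.97 to 58.5 ± 2.11 FPKM and changed by -0.38 ± 0.07, a call lost with the close libraries summed (adjusted p = 0.119) and with all 17 libraries (0.319). The 3 that were higher were RUNX1, CREB5 and RERE.

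Polarity and scaffold proteins were lower in 14 of 18, with 4 that did not pass and a median of -1.07 at 16 mM. PARD3, another polarity protein of cell junctions, went from 28.8 ± 3.72 to 18.4 ± 1.15 and 13.7 ± 1.63 FPKM. It changed by -1.23 ± 0.07 at 16 mM, against -6.27 for PARD3B. APBB2, an adaptor that binds the amyloid precursor protein, changed by -1.31 ± 0.06. PALLD, an actin-bundling protein, had 25.7 to 38.8 FPKM in control, 24.6 to 31.2 with 10 mM and 25.1 to 30.2 with 16 mM. Its groups overlapped at both doses, with a change of -0.15 ± 0.08 at 16 mM (adjusted p = 0.113).

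TIAM1 was among the long members that changed least. It encodes a guanine nucleotide exchange factor. It had 4.84 to 6.01 FPKM in control, 5.15, 5.44, 4.8, 4.47 and 5.04 at 10 mM and 5.94, 6.53, 5.78, 4.56 and 4.42 at 16 mM. All 3 groups overlapped, with changes of 0.01 ± 0.08 at 16 mM (adjusted p = 0.934) and -0.13 ± 0.08 at 10 mM. In the second close set alone TIAM1 was lower at 16 mM (-0.18, adjusted p = 0.0216).

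Among kinases, 13 of 16 were lower at 16 mM, 1 higher and 2 did not pass (median -1.09). RPS6KA2, a ribosomal S6 kinase downstream of ERK, went from 29.8 ± 0.82 to 17.5 ± 1.1 and 11.1 ± 1.68 FPKM, a change of -1.41 ± 0.07 at 16 mM (adjusted p = 3.19e-11). Of the long members for genome maintenance, cell cycle and centrosome, 10 of 10 were lower at 16 mM and 8 at 10 mM (medians -1.53 and -0.67). With its 3 members under 400 kb, none of which passed, the list had 10 of 13 lower at 16 mM and a median of -0.81. BABAM2, a subunit of the BRCA1-A complex that acts at DNA breaks, had 26.55 to 31.3 FPKM in control, 17.3 to 20.45 with 10 mM and 8.87 to 11.85 with 16 mM, with no overlap and a change of -1.46 ± 0.07 (adjusted p = 9.94e-11). STAG1, a cohesin subunit, changed by -0.81 ± 0.06.

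Metabolic and glycan enzymes were lower in 14 of 16 and higher in 1 (median -2.03), and channels and transporters in 11 and 1 of 15 (median -2.15). GPC6 is a heparan sulphate proteoglycan of the glypican family, not an enzyme. It had 1.9 to 2.96 FPKM in control, 0.11, 0.07, 0.04, 0.1 and 0.05 at 10 mM and 0.07, 0.07, 0.05, 0.11 and 0.12 at 16 mM. It was near its lowest at both doses, with changes of -4.80 ± 0.21 at 10 mM and -4.68 ± 0.21 at 16 mM (adjusted p = 2.28e-11). ADK, adenosine kinase, changed by -0.83 ± 0.09 at 16 mM. ITPR2, a calcium release channel of the endoplasmic reticulum, had 5.04 to 5.84 FPKM in control, 1.91 to 2.25 with 10 mM and 0.93 to 1.19 with 16 mM, with narrow, separate groups and a change of -2.33 ± 0.07 (adjusted p = 3.89e-13). SLC39A11, a zinc transporter, changed by -2.15 ± 0.12, SLC9A9, an endosomal sodium/proton exchanger, by -4.92 ± 0.37, and ANO2, a calcium-activated chloride channel, by -3.47 ± 0.35.

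At 16 mM, 8 long members were higher (3.83%, against 33.7% of all genes). RUNX1, a transcription factor whose gene is placed at chr21:34787801-35984710, had 4.21 to 4.91 FPKM in control, 5.26, 5.75, 6.03, 5.34 and 6.18 at 10 mM and 8.22, 9.21, 8.15, 12.7 and 12.2 at 16 mM. Its groups did not overlap, with changes of 1.24 ± 0.12 at 16 mM (adjusted p = 1.53e-07), 0.42 ± 0.12 at 10 mM (adjusted p = 0.0104; 0.284 with the close libraries summed) and 0.82 ± 0.13 between the doses. It was the 1 long member called higher at 10 mM. NAV3, a microtubule-associated neuron navigator, had 0.15 to 0.24 FPKM in control and 0.32, 0.4, 0.35, 1.24 and 1.17 at 16 mM, where the 2 close sets differed; its change was 1.93 ± 0.47 (adjusted p = 0.00164; 0.0617 with the close libraries summed).

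The other 6 changes were small or at low levels. CREB5, a CRE-binding transcription factor, changed by 0.78 ± 0.16 and KCNAB1, a potassium channel beta subunit, by 0.66 ± 0.18, both under 1 FPKM. RERE, a nuclear receptor corepressor, changed by 0.32 ± 0.05. With the close libraries summed their adjusted p-values were 0.1, 0.159 and 0.097. The calls of DOCK4 (0.41 ± 0.18), PDE4D (0.15 ± 0.06) and METTL15 (0.14 ± 0.05) were lost when the normalisation used only genes under 100 kb, at adjusted p = 0.108, 0.303 and 0.248.

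Long members also differed by the extent of their annotated transcripts, which the rule did not use. Coding transcripts were counted from the basic set of GENCODE v29, and only those with a CCDS tag where any has one. Shorter coding transcripts outside this count may exist. By this count, 109 long members have no coding transcript shorter than 400 kb in genomic extent. Of the 108 of these that were tested, 102 were lower at 16 mM and 1 higher, with a median of -1.87. Among 65 tested members whose shortest coding transcript extends over 100 to 400 kb, 54 were lower and 4 higher, with a median of -1.41. Among 36 with one under 100 kb, 25 were lower and 3 higher, with a median of -0.64. The order of the classes was the same at 10 mM, with medians of -1.05, -0.84 and -0.35. In RUNX1 the coding transcripts counted extend over 67.4 to 261.5 kb of a gene record of 1217 kb. Of the other long members that were higher, the longest counted was 381.7 kb in NAV3 and 225.3 kb in METTL15. It was 418.0 kb or more in CREB5, KCNAB1, DOCK4, RERE and PDE4D. ANO2, which was lower, also had none of 400 kb, with 383.6 kb. TIAM1 has 1 coding transcript by this count, of 440.6 kb, so the level of a gene did not follow this measure in every case.

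RefSeq gave a promoter for 180 of the 213 long members. The start used lay within 1 kb of the gene's 5′ end in GENCODE for 119 of 152 (78.3%) long members that were lower at 16 mM, for 12 of 17 that did not pass and for 2 of 7 that were higher, against 84.9% of tested genes with a promoter. These shares were not tested against each other, and 3 of the 8 higher calls were lost under another normalisation and in other fits. Both starts printed for RUNX1 and NAV3 are of the inner kind. Among starts within 1 kb, the 250 bases before the start held a median of 23 CG dinucleotides in long members and 22 in tested genes, and 83.7% and 88.2% held at least 10. The letters TATAAA stood on either strand in 3.7% of these windows of long members and 4.91% of tested genes, TGACTCA (its other strand reads TGAGTCA) in 0 of 135 and 2.19%, and GAANNTTC in 1.48% and 4.0%. A match, or none, describes the letters only.

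Genes next to long members did not share the fall as a group. Within 500 kb of long members, the nearest tested genes that are no members number 295. At 16 mM 107 were lower and 97 higher, with a median of -0.03 and 69.2% passing. The 207 neighbours under 100 kb had a median of 0.09 with 59 lower (28.5%), and the 86 of 100 to 400 kb had -0.36 with 47 lower (54.7%). Only 3 tested genes lie wholly inside a long member. MDH1, the cytosolic malate dehydrogenase inside WDPCP, changed by -0.12 ± 0.10 where WDPCP changed by -1.29. SETMAR inside SUMF1 changed by 0.08 ± 0.08 against -0.72, and TRIM32 inside ASTN2 by 0.27 ± 0.06 (adjusted p = 0.00116) against -0.56.

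The short genes that the deposited coordinates brought in included the largest rise of all members. PHLDA2, a small pleckstrin-homology protein from an imprinted cluster, spans 1.2 kb in GENCODE. It had 6.09 to 7.92 FPKM in control, 24.5, 23.4, 23.8, 29.96 and 31.4 at 10 mM and 45.85, 55.3, 44.35, 72.4 and 77.85 at 16 mM. The groups did not overlap, and the change was 3.12 ± 0.18 at 16 mM (adjusted p = 2.93e-10). WDR81, RILP, PHRF1 and POLR1C, spanning 3.9 to 52.7 kb, changed by 1.19, 1.08, 0.98 and 0.95. CDKN1C and SLC22A18, of 2.6 and 25.5 kb, changed by -0.91 ± 0.24 and -0.86 ± 0.27 at 16 mM, with groups that overlapped and adjusted p = 0.0869 and 0.111 with the close libraries summed. RPS24, a ribosomal protein, stayed at 2510 ± 167, 2460 ± 330 and 2440 ± 254 FPKM, and YWHAE, a 14-3-3 protein, at 363 ± 43.5, 393 ± 16.2 and 378 ± 4.79.

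Between these classes, NEBL (394.2 kb), which encodes the actin-binding nebulette, had 14.2 to 21.0 FPKM in control, 6.51, 6.69, 6.51, 2.88 and 3.03 at 10 mM and 2.16, 1.83, 1.94, 1.14 and 1.05 at 16 mM. It separated all groups, with a change of -3.42 ± 0.23 (adjusted p = 2.8e-09). SYNE2 (373.4 kb), a giant nesprin of the nuclear envelope, changed by -1.26 ± 0.16, and GSK3B (273.1 kb), the glycogen synthase kinase, by -0.45 ± 0.05 (adjusted p = 0.0564 with all 17 libraries). PALM2AKAP2 (392.2 kb), an anchor of protein kinase A, went the other way between the doses, from 36.9 ± 1.87 to 55.2 ± 7.72 FPKM (0.61 ± 0.10, adjusted p = 0.000243; 0.185 with the close libraries summed), and in control had 39.9 ± 1.65.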

How the data were processed

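Poly-A RNA libraries of BEAS-2B cells were sequenced. HISAT, Bowtie2 2.3.4.3, RSEM 1.3.1, DESeq2 1.4.5 and build GRCh38.p13 are named per the submitters' processing notes, with no roles given. Strandedness is not stated in the labels, so overlapping and antisense genes cannot be told apart. The authors' deposited table holds estimated counts per gene, not normalized (per the file headers, named read counts), FPKM and TPM per library, and DESeq2 log2 changes with p-values and q-values from the authors. TPM was not used.

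Estimated counts were rounded and fitted with edgeR 4.0.16 in R 4.3.3 (TMM, filterByExpr, quasi-likelihood test, one fit of 3 groups, 16 libraries), with Benjamini-Hochberg adjustment across 12545 genes. All tests were two-sided. The SE was taken from the F statistic, as the absolute log2 change over its square root. Spans were taken from the deposited coordinates for the rule and from GENCODE v29 for the check, transcripts from its basic set (those with a CCDS tag where any has one), and promoters from RefSeq. The code was tested on simulated counts.

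The members and the gene lists were chosen with earlier results of these data known. Genes were named by a rule: the largest called changes in each comparison with at least 1 FPKM, the highest control counts, the longest deposited spans, up to 3 best expressed members per functional list and the least changed members; the text names part of them. The 8 long members that rose, the fragile site members and the genes nested in long members were named after their values were seen. Alternatives were other libraries, normalisations, filters and tools (DESeq2 1.42.0, limma 3.58.1), a replicate block, sums of close libraries, other spans and count rules, and each library left out in turn. The fits within close sets, the GENCODE span rule and all alternatives for the long members were added after the data were seen. Of the functional lists, 1 is not reported here.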

Additional observations from a re-analysis of the deposited data

Results flagged for a closer look

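Among 213 groups of 5 or 6 libraries (71 named genes in 3 groups), 5 had 1 library apart from the rest by Dixon's criterion, where chance gives about 1 in 20. The library with the highest FPKM stood apart in each. These were 16 mM library 3 for PARD3B (0.12, next 0.08), control library 2 for EXOC4 (21.2, next 19.3), 10 mM library 2 for SND1 (65.7, next 61.4), control library 1 for RUNX1 (4.91, next 4.39) and 10 mM library 3 for PHRF1 (22.3, next 20.8).

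In 10 mM library 1, which entered none of the comparisons, 8 of the 213 long members had a higher FPKM than every control library and 186 a lower one than every control library. The median log2(FPKM + 0.1) of the tested long members was 1.89 below the control mean there (-1.89), that of the members under 100 kb -0.70.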

How the results depend on the processing

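No alternative reversed the median of the members or of the long members. With 10 mM library 1 included, the calls between the doses fell to 104 (87 long). Summing close libraries left 74 calls at 10 mM (69 long) and 0 between the doses. On log2(FPKM + 1) with limma the medians were -0.64, -0.39 and -0.23 for members and -1.0, -0.61 and -0.36 for long members (16 mM, 10 mM, between doses). On log2(FPKM + 0.1) they were -0.47 for members at 10 mM, and -1.28 and -0.48 for long members at 16 mM and between doses. The second close set gave -1.03 for members at 16 mM and -0.98 for long members at 10 mM. A deposited span of 300 kb or more gave 448, 376 and 291 calls, and one of 600 kb or more 125, 103 and 77 with medians of -0.70, -0.43 and -0.25. Choosing by GENCODE span gave medians of -1.48, -0.79 and -0.54.

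Leaving out each library in turn gave 265 to 271, 221 to 235 and 157 to 186 called members, with medians of -0.86 to -0.79, -0.57 to -0.53 and -0.40 to -0.33, and 183 to 188, 161 to 170 and 116 to 132 called long members, with medians of -1.56 to -1.51, -0.87 to -0.79 and -0.61 to -0.52. A replicate block gave 274, 230 and 186 called members; 11 of 14 same-numbered pairs correlated over 0.1 (from -0.37 to 0.455) and 3 of 16 libraries correlated best with their own number. As not every pair passed 0.1 and the labels name no pairing, the libraries were treated as sharing only a number.

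By span class under normalisation on genes under 100 kb, the medians at 16 mM were -0.09 (under 10 kb), 0.02 (10 to 30 kb), -0.01 (30 to 100 kb, reversed) and -0.15 (100 to 200 kb), at 10 mM -0.03, 0.02, 0.00 and -0.10, and between doses -0.07, 0.00 and 0.00 for the first 3 classes. With all 17 libraries they were 0.09 at 16 mM (10 to 30 kb), 0.29, 0.16, -0.14 and -0.38 at 10 mM (under 10, 10 to 30, 100 to 200 and 200 to 400 kb), and -0.31, -0.08 (reversed), 0.02 and 0.04 (reversed) between doses up to 200 kb. DESeq2 size factors gave 0.09 at 16 mM (10 to 30 kb) and 0.03 between doses (30 to 100 kb). Single genes reversed for CAMTA1 at 10 mM with all libraries (0.28), DOCK4 at 10 mM in the first close set (-0.24), and TIAM1 at 16 mM (-0.18), CDKN1C at 10 mM (-0.63) and RPS24 at 10 mM (0.15) in the second. The causes were not tested.

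Genes near the count minimum have the fewest reads, and their changes the largest errors.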

Other observations

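Long genes outside the rule were measured too. In GENCODE v29, 28 genes of at least 400 kb with a mean control count of at least 10 are not members, 8 of them because the deposited span exceeds 3 Mb. Of 30 non-members of at least 400 kb that were tested, whatever their control count, 21 were lower and 5 higher at 16 mM, with a median log2 change of -0.84. At 10 mM 17 were lower and 3 higher, with a median of -0.45. The genes left out by name were not removed from this set. A gene with a control count under 10 passes the filter on low counts mainly through exposed libraries where it is high. The filter thus favours higher calls among such genes.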
